A study of Homo sapiens with 15 samples.

Results

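The mature microRNA miR-1247-5p (entry hsa-miR-1247-5p) was 1 of 1619 entries in a table of small RNA counts from DiFi cells, a long-established line from a human colorectal cancer that carries an amplified EGFR gene. It was chosen by its high values in HDM and media libraries against cell pellets and plates, so those differences are given here as a description, with no test. The series addressed which culture conditions allow carriers of small RNA released by the cells to be sampled. Every library came from DiFi, and the labels name no other treatment. There were 2 unfiltered HDM and 2 filtered HDM libraries, 1 library of HDM media and 1 of regular media, 2 cell pellets, and 2 libraries from each of plate 1, plate 2 and plate 3 cells. In each pair 1 library was labelled HF6 and the other HF7. What HDM and HF stand for is not given by the labels, which also do not say how the filtered HDM was filtered, whether the media had been in contact with cells, or whether HF6 and HF7 were separate cultures. The p-values therefore measure only the spread between these libraries. A sample of HDM media without cells was not analysed here, so no library labelled as free of cells was measured.

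A miRNA is cut from a hairpin in a longer transcript, first in the nucleus by Drosha and then in the cytoplasm by Dicer. One of the resulting arms is usually loaded into an Argonaute protein, which finds target transcripts through the seed, bases 2 to 8 of the miRNA. Mature miRNAs are also found outside cells, in vesicles and in non-vesicular particles such as supermeres, so a medium sample and a cell sample of one line can hold them in different proportions. MIR1247 lies at the end of the DLK1-DIO3 region, an imprinted domain of chromosome 14 that also holds large groups of miRNA genes.

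The mature sequence and its hairpin are shown because the base composition and the choice of arm are described further on. Both come from RefSeq (GRCh38.p14), and the mature sequence is the one that the deposited table lists. In the mature sequences capitals mark the seed, and in the hairpin they mark the 2 arms.
hsa-miR-1247-5p: aCCCGUCCcguucguccccgga
hsa-miR-1247-3p: cCCCGGGAacgucgagacuggagc
MIR1247 hairpin: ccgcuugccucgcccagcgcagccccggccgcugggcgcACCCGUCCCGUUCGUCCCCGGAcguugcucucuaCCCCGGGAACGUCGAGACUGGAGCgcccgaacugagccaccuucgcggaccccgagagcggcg

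The 22-base miRNA lies at chr14:101560362-101560383 on the minus strand (GRCh38). It occupies bases 40 to 61 of a 136-base hairpin at chr14:101560287-101560422. In GENCODE 29 the miRNA falls in exon 1 of DIO3OS, a long non-coding RNA on the same strand (chr14:101552221-101560431), in 7 of the 8 DIO3OS transcripts that overlap it, and overlaps exon 1 in part in the other (DIO3OS-203). DIO3, which encodes a deiodinase that inactivates thyroid hormone, starts 929 bases beyond the hairpin on the opposite strand. No other entry of the table shared the seed of miR-1247-5p. The closest of 1486 other sequences, those within 2 bases of its length, differed at 8 bases. Among these entries, reads of a near-identical mature miRNA were not a source of doubt. Entries that differed more in length were not compared.

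miR-1247-5p was higher in every HDM and media library than in any cell library. In CPM (counts scaled to 1000000 miRNA counts per library), unfiltered HDM held 334 CPM in HF6 and 219 CPM in HF7, and filtered HDM held 264 CPM in HF6 and 273 CPM in HF7. HDM media held 360 CPM and regular media 146 CPM. These 6 libraries did not overlap with the 8 cell libraries, of which the highest was the HF7 plate 3 at 39.6 CPM. Cell pellets held 6.79 CPM in HF6 and 12.8 CPM in HF7. Plate cells held 22.8 CPM (HF6) and 23.6 CPM (HF7) on plate 1, 33.5 CPM (HF6) and 32.1 CPM (HF7) on plate 2, and 29.7 CPM (HF6) and 39.6 CPM (HF7) on plate 3.

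**Figure D1:**
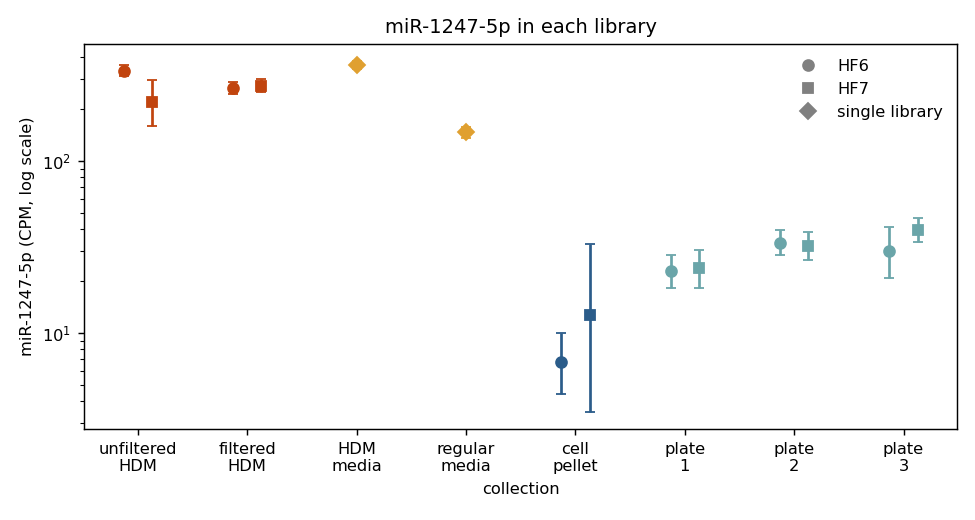
miR-1247-5p in each library, in CPM on a log scale, with exact Poisson 95% intervals as bars. Circles are HF6, squares HF7 and diamonds single libraries. The HDM and media libraries lie between 146 and 360 CPM, and the cell libraries between 6.79 and 39.6 CPM.

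The counts behind these levels differed widely, as did their precision. The HF6 unfiltered HDM held 753 reads of the miRNA, with an exact Poisson 95% interval of 310 to 358 CPM. The HF7 unfiltered HDM held 45 reads in a library of 205734 counts (160 to 293 CPM). Filtered HDM held 654 reads in HF6 and 468 in HF7, HDM media 1730 and regular media 714. The HF7 cell pellet held 4 reads of 313382 counts, which allows 3.48 to 32.7 CPM, whereas the HF6 cell pellet held 26 reads (4.43 to 9.95 CPM). The plate libraries held 37 to 151 reads each. Such intervals cover counting error only, since the table carries no molecular identifiers.

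By mean level the collections ran from HDM media (360 CPM, a single library) through unfiltered HDM (276 ± 81.3 CPM, SD, n = 2), filtered HDM (268 ± 6.74 CPM, n = 2) and regular media (146 CPM, a single library) to plate 3 (34.6 ± 6.99 CPM, n = 2), plate 2 (32.8 ± 0.959 CPM, n = 2), plate 1 (23.2 ± 0.598 CPM, n = 2) and cell pellets (9.78 ± 4.22 CPM, n = 2). Unfiltered and filtered HDM overlapped, as did plate 3 and plate 2, and no other neighbours in this order did. With library totals adjusted by the trimmed mean of M values (TMM, which balances the bulk of the miRNAs between libraries), filtered HDM stood at 249 CPM and unfiltered HDM at 235 CPM, so the order of these 2 collections depended on the scaling. Within a library the miRNA ranked between 120 and 167 from the top in HDM and media, and between 233 and 352 in cells.

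The separation of the HDM and media libraries from the cell libraries was among the widest in the table. Of 534 miRNAs with enough counts to be tested, 44 (8.24%) were higher in all 6 HDM and media libraries than in all 8 cell libraries. The lowest HDM or media value of miR-1247-5p was 3.69 times its highest cell value, and only miR-150-5p, a lymphocyte miRNA, had a wider gap (7.92 times). The choice of miR-1247-5p rested on these same values, so this ranking is a description.

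In the joint edgeR fit of the 12 replicated libraries, miR-1247-5p was 4.58 ± 0.39 log2 units higher in unfiltered HDM than in cell pellets (fold with its standard error), a ratio of 23.9. Filtered HDM over cell pellets gave 4.60 ± 0.39 log2 units. Both values ranked 21 of 534. In these comparisons 20 and 19 of the tested miRNAs, in the same order, had no read in 1 of the 2 collections compared. The fold of such a miRNA is not fixed by its reads, so the rank is approximate. Both HDM collections over the 3 plates gave 3.02 ± 0.19 log2 units, a ratio of 8.10, which ranked 2 of 534. The median of all tested miRNAs was 0.06, 0.09 and -0.04 in these comparisons in the same order. Taken against plate 1 alone the HDM difference was 3.26 ± 0.29 log2 units, and against plates 2 and 3 it was 2.90 ± 0.21. No spike-in was recorded, so each of these values is a share of the miRNA pool: more miR-1247-5p and less of other miRNAs cannot be told apart.

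The difference was also seen within each HF number. This is again a description, because the choice of the miRNA used the libraries of both. The HF6 unfiltered HDM held 49.2 times the CPM of the HF6 cell pellet (95% interval 33.3 to 75.7), and the HF6 filtered HDM 38.8 times (26.3 to 59.9). In HF7 the ratios over the pellet were 17.1 for unfiltered HDM (6.25 to 65.6) and 21.4 for filtered HDM (8.31 to 78.9), with wide intervals because the HF7 pellet held 4 reads. Against plates of the same HF number the 12 ratios ran from 5.53 to 14.6. The highest of them was the HF6 unfiltered HDM over plate 1 and the lowest was the HF7 unfiltered HDM over plate 3.

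**Figure D2:**
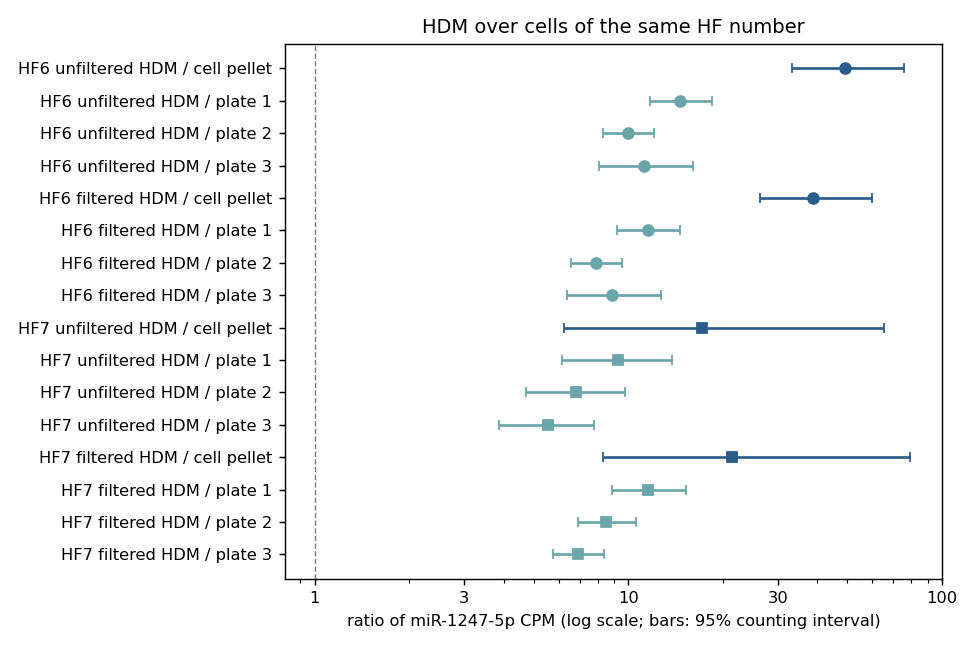
Ratios of miR-1247-5p CPM in HDM over cells of the same HF number, on a log axis, with 95% conditional binomial intervals for counting error as bars. Dark points are cell pellets and light points plates, and circles are HF6 and squares HF7. All 16 ratios lie above 1, from 5.53 to 49.2.

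No difference between filtered and unfiltered HDM was detected. Filtered HDM over unfiltered HDM gave 0.02 ± 0.28 log2 units (95% interval -0.66 to 0.70; edgeR adjusted p = 0.982). The 2 HF numbers went opposite ways: the ratio of filtered to unfiltered HDM was 0.790 in HF6 (0.711 to 0.879) and 1.25 in HF7 (0.919 to 1.74). The direction of so small a difference changed with the scaling and the filter. Across all 534 miRNAs 3 (0.562%) passed an adjusted p under 0.05 in this comparison, all of them lower in filtered HDM, and 37 had an unadjusted p under 0.05.

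Cell pellets held less miR-1247-5p than plate cells did. The miRNA was chosen for HDM and media values high against both pellets and plates. That choice bears on this comparison, so its p-value is not free of the choice. The edgeR difference of pellets over plates was -1.57 ± 0.36 log2 units, which is 2.97-fold lower in pellets (adjusted p = 0.00372). In this comparison 17.2% of tested miRNAs passed as higher and 15.4% as lower in pellets, so a call was common. Both pellets lay below all 6 plates, but the HF7 pellet over HF7 plate 1 gave a ratio of 0.540 with a 95% interval of 0.143 to 1.45. Over HF7 plate 2 the ratio was 0.398 (0.106 to 1.05) and over HF7 plate 3 it was 0.323 (0.0868 to 0.843), so of the 3 differences in HF7 only that from plate 3 was detectable at the depth of the pellet. Without the HF6 pellet the difference was -1.15 log2 units and was no longer called (adjusted p = 0.245). With limma-voom and quality weights it was -1.58 log2 units (adjusted p = 0.110). Over 19 alternatives the adjusted p ran from 7.7e-05 to 0.245, and 17 of them kept the call.

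Among the plates no difference in the miRNA passed the test. Plate 1 over plates 2 and 3 gave -0.36 ± 0.26 log2 units (edgeR adjusted p = 0.358), although both plate 1 libraries lay below all 4 others. In that comparison 14.6% of tested miRNAs passed as higher and 11.4% as lower on plate 1. Plate 3 over plate 2 gave 0.13 ± 0.30 log2 units. HF7 over HF6, with collection in the model, gave -0.05 ± 0.19 log2 units (95% interval -0.51 to 0.41; edgeR adjusted p = 0.930). No miRNA passed for HF number (0% in edgeR), with 40 at an unadjusted p under 0.05 and 1 called by DESeq2.

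The 2 media libraries had no replicates and were not tested. HDM media held 2.47 times the CPM of regular media (95% interval 2.26 to 2.69, counting error only). Regular media in turn held 3.69 to 6.39 times the CPM of the plate libraries. Against the 4 HDM libraries, the HDM media ratio ran from 1.08 to 1.64.

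Reads from this hairpin came almost wholly from its 5p arm. The 3p arm had 3 reads in all, every one in the HF7 plate 3, against 4979 reads of miR-1247-5p over the 14 libraries. That is 0.0602% of the reads from both arms (exact Clopper-Pearson 95% interval 0.0124% to 0.176%). In HDM and media the 3p arm had 0 reads beside 4364 of the 5p arm, which allows a share of up to 0.0687%. The 3p arm was too rare to be tested.

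The other miRNAs of the region were seen mainly on plate 1. The table held 33 other entries within 1000000 bases of it, 32 of them on the opposite strand and starting at least 493596 bases away, and the remaining one the 3p arm. None reached the count needed for a test. Their summed level was 22.3 CPM (HF6) and 21.4 CPM (HF7) on plate 1, from 84 and 57 reads. In each of the other 12 libraries it was at most 2.34 CPM, from 0 to 8 reads. Of their 170 reads 141 (82.9%) came from plate 1, where 15 entries had a read in both libraries. The HDM libraries, in which miR-1247-5p was high, held 0 to 4 reads of all 33 together.

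**Figure D3:**
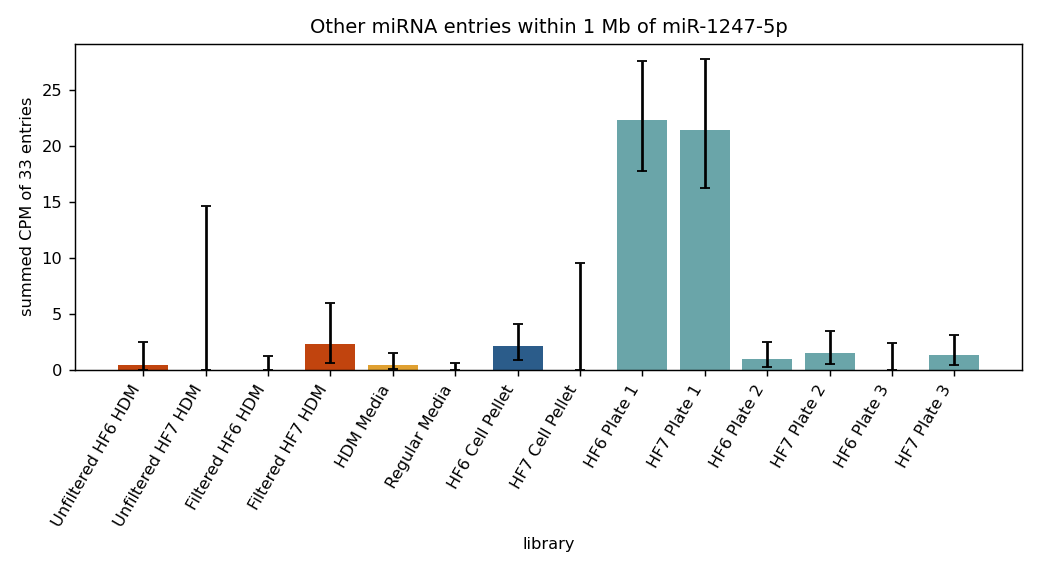
Summed CPM of the 33 other miRNA entries within 1000000 bases of miR-1247-5p in each library, with exact Poisson 95% intervals (for 0 reads, the level of 3 reads). The 2 plate 1 libraries stand at 22.3 and 21.4 CPM, and every other library at or below 2.34 CPM.

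The sequence of miR-1247-5p is unusually rich in G and C. At 72.7% it ranked 28 of 534 tested miRNAs, whose median was 47.8%. Across the 534 miRNAs, G and C content went with a higher value in unfiltered HDM over cell pellets (Pearson r = 0.39) and in filtered HDM over cell pellets (r = 0.38), and less so in HDM over plates (r = 0.26). These are correlations across miRNAs of shared libraries, which are not independent replicates. The pellets over plates comparison ran the other way (r = -0.32). For HF7 over HF6, where no miRNA passed in edgeR, r was 0.23, close to the value for HDM over plates. For filtered over unfiltered HDM r was 0.03. These correlations are a description, and the differences between them were not tested. The part of base composition in the level of miR-1247-5p was not tested.

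Of 166 other entries with at least 70% G and C, 36 had enough counts to be tested. In unfiltered HDM over cell pellets 13 were higher and 1 lower, against 14.4% and 16.5% of all tested miRNAs. In filtered HDM over cell pellets 17 were higher and 1 lower (18.2% and 21% of all). Their median difference was 1.62 log2 units in unfiltered HDM (all miRNAs 0.06) and 2.01 in filtered HDM (all miRNAs 0.09). Because 8 of the 36 had no read in either pellet, the medians were also taken with those entries held at 3 reads over both pellets, giving 1.54 and 1.96. In pellets over plates 1 of the 36 was higher and 15 lower, with a median of -1.66 log2 units (-1.51 with the entries at 0 held at 3 reads).

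Against plates the GC-rich entries lay close to all miRNAs. In HDM over plates 5 of 36 were higher and 3 lower, against 15% and 16.1% of all tested miRNAs, with a median of 0.17 log2 units. With plate 1 left out 0 of 34 were higher and 4 lower, where 61 and 59 of all 503 miRNAs were. With plates grouped by HF number 0 of 36 were called in either direction, where 49 of all 534 miRNAs were. miR-1247-5p itself stood at 3.02 log2 units in HDM over plates. Within the GC-rich list miR-1307-3p, its most abundant member, rose by 1.45 ± 0.34 log2 units in filtered HDM over pellets (adjusted p = 0.00335). miR-326, which acts on Notch receptors in brain tumour cells, rose by 1.70 ± 0.56 log2 units in filtered HDM over pellets (adjusted p = 0.0252) and by 1.24 ± 0.29 in HDM over plates (adjusted p = 0.00511). Against plates 2 and 3 alone miR-326 stood at 0.68 log2 units, and the call was lost (adjusted p = 0.136). miR-1307-5p fell by 0.68 log2 units in HDM over plates (adjusted p = 0.0182). miR-10401-3p, the fourth most abundant, passed in neither.

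**Figure D4:**
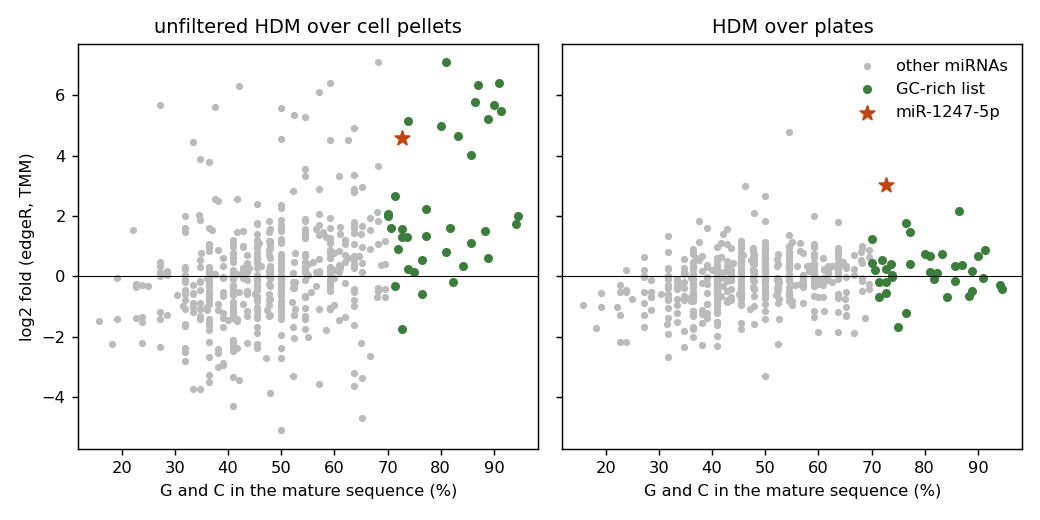
Share of G and C in each mature sequence against the edgeR log2 fold of 534 tested miRNAs, for unfiltered HDM over cell pellets (left) and HDM over plates (right). The star is miR-1247-5p at 72.7% (4.58 and 3.02 log2 units), and green points are the 36 GC-rich entries, with medians of 1.62 and 0.17.

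The pellet comparisons depended on scaling and on single libraries. With totals alone in place of TMM, the median of all miRNAs moved to 0.64 log2 units in unfiltered HDM over pellets and 0.56 in filtered HDM over pellets, and the calls went to 164 higher and 47 lower, and to 176 higher and 71 lower. miR-1247-5p then stood at 5.23 and 5.14 log2 units. In HDM over plates the calls went to 128 higher and 60 lower. In unfiltered HDM over pellets 3 of 19 GC-rich entries were called higher in a fit of only the libraries compared, where 25 of all 376 miRNAs were. With limma-voom 4 of 36 were (41 of all 534), and with plates grouped by HF number 4 of 36 (28 of all 534). Without the HF6 unfiltered HDM their median was 1.20 log2 units (all miRNAs -0.21). Without the HF6 pellet it was 3.89 (all miRNAs 0.79), in a fit that rests on the shallow HF7 pellet. In pellets over plates 2 of 36 were called lower with limma-voom (19 of all 534) and 5 of 36 with plates grouped by HF number (21 of all 534). Without the HF6 pellet their median was -2.92 log2 units there (all miRNAs -0.63). The HF7 cell pellet and the HF7 unfiltered HDM were the 2 libraries under 1000000 counts. Without them the GC-rich median in filtered HDM over the pellet was 2.47 log2 units (all miRNAs 0.16). Without the HF6 pellet it was 3.80 (all miRNAs 0.81), again from the shallow HF7 pellet. In filtered HDM over pellets 6 of 23 GC-rich entries were called higher with only the libraries compared (44 of all 426 miRNAs). With plates grouped by HF number 9 of 36 were (47 of all 534), and with limma-voom 10 of 36 (59 of all 534).

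The short motifs GGAG and CCCU, both described for miRNAs exported in vesicles of T cells, were looked for in the mature sequences on the strand given. Neither run of letters occurs in miR-1247-5p. GGAG was present in 14.7% of the 1619 entries and CCCU in 13.1%. The absence says only that these letters are not in the sequence.

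By the pattern over all 14 libraries, the 5 miRNAs most like miR-1247-5p were miR-23b-3p (Pearson r = 0.96), miR-552-3p (0.95), miR-150-5p (0.95), miR-296-3p (0.95) and miR-148a-5p (0.94). The likeness was taken on log2(CPM + 1) among the 283 miRNAs that averaged 20 CPM or more, for which the median r was 0.40. The 14 libraries come from 8 collections and are not 14 independent points. None of the 5 shares the seed. For that reason the 3 found by name in the RefSeq copy used here are shown, with the seed in capitals.
hsa-miR-23b-3p: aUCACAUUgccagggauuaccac
hsa-miR-552-3p: aACAGGUGacugguuagacaa
hsa-miR-296-3p: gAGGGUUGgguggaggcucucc

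These miRNAs differed from miR-1247-5p in how far they moved. miR-1247-5p spanned 5.53 log2 units from its lowest to its highest library, miR-150-5p 6.56 and the other 4 between 1.48 and 2.93. miR-23b-3p, of a cluster with miR-27b and miR-24, averaged 10698 CPM in HDM, 4649 CPM in pellets and 5660 CPM on plates. miR-150-5p, known from mature lymphocytes, averaged 63.1 CPM in HDM, 0.522 CPM in pellets and 2.36 CPM on plates. Its cell values rest on 4 reads in the HF6 pellet, 0 in the HF7 pellet and 2 to 18 in each plate library. miR-552-3p, which is raised in colorectal tumours, averaged 162 CPM in HDM, 32.04 CPM in pellets and 46.6 CPM on plates. Of the 5, the Spearman order kept 2 and the order over collection means kept 4.

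**Figure D5:**
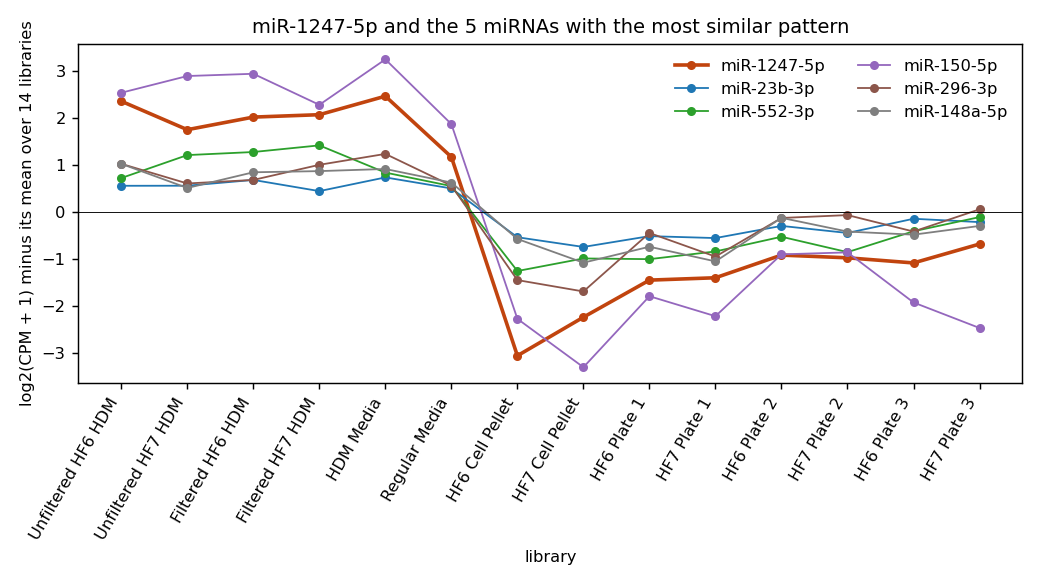
log2(CPM + 1) of miR-1247-5p and the 5 miRNAs with the most similar pattern, each minus its own mean over the 14 libraries. All 6 lie higher in the HDM and media libraries on the left, which follows from how they were chosen. miR-1247-5p spans 5.53 log2 units, more than all but miR-150-5p at 6.56.

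Markers of other RNA sources were measured beside these differences. The 9 blood and serum miRNAs summed to 1382 to 2951 CPM in HDM, 2625 and 4108 CPM in media, and 2468 to 4028 CPM in cells. Most of this sum came from the 2 arms of miR-142, miR-142-3p and miR-142-5p. They held 4478 and 2048 of 6659 reads in the HF6 unfiltered HDM, and 2291 and 940 of 3427 in the HF6 filtered HDM. In the HF6 cell pellet they held 5432 and 5118 of 10600 reads. The sum was 2951 CPM (HF6) and 2542 CPM (HF7) in unfiltered HDM, and 1382 and 1551 CPM in filtered HDM. Of the 5 that could be tested, 1 (miR-150-5p) passed as higher in unfiltered HDM over pellets and 2 as lower. In filtered HDM over pellets miR-150-5p rose by 5.39 ± 0.55 log2 units (edgeR adjusted p = 2.85e-06) and the other 4 fell. The red cell miRNA miR-451a fell by 2.57 log2 units (adjusted p = 0.00444), and miR-142-5p, of leukocytes, fell by 2.22 (adjusted p = 3.43e-05). The plasma and liver marker miR-122-5p had 0 or 1 read in each HDM library and 4 and 2 reads in HDM media and regular media. miR-486-5p, of red cells, had 0 reads in every HDM and media library.

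Stromal and endothelial markers were low in HDM. The 6 that the table held summed to 25.7 to 38.9 CPM in HDM, 21.2 and 29.4 CPM in media, and 55.4 to 176 CPM in cells, and the 3 that could be tested were lower in both HDM collections than in pellets. The fibroblast marker miR-143-3p had 0 reads in every HDM and media library. The 8 gut epithelial miRNAs, which mark the labelled tissue, made up 23.5% to 24.97% of HDM libraries, 24.5% and 24.8% of media libraries and 27.4% to 31.2% of cell libraries. None of the 8 passed as higher in filtered HDM over pellets and 6 passed as lower. Of the blood, serum, stromal and endothelial miRNAs in these lists that were tested in that comparison, miR-150-5p alone rose. miR-155-5p, a leukocyte miRNA outside the lists and named after its values were seen, also stood 2.60 ± 0.33 log2 units higher there. In HDM over plates it stood 1.83 ± 0.18 higher, and both values are a description. The part of other RNA sources in the level of miR-1247-5p was not tested.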

How the data were processed

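Small RNA from DiFi cells and media was purified with miRNeasy and prepared for sequencing with the NEXTflex Small RNA-Seq kit, per the labels' protocols. cutadapt 2.10, Bowtie 1.3.1, FastQC and the build GRCh38 are named in the submitters' processing notes. The authors deposited expected counts per mature miRNA, not normalized; 4.40% of values are fractional, and the rule behind them and the miRNA annotation are not given in the sources used here. Of 15 samples in the labels, 14 have a column and were used.

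CPM were computed from deposited totals. For tests, counts were rounded and the 12 replicated libraries were fitted in edgeR 4.0.16 (quasi-likelihood, TMM, filterByExpr by collection, 1 coefficient per collection; 534 miRNAs, 6 residual degrees of freedom), with Benjamini-Hochberg adjustment over all tested miRNAs and a threshold of 0.05. The fit was tested on simulated data. Alternatives used limma 3.58.1, DESeq2 1.42.0, other scalings and filters, and left-out libraries. Library totals ran from 205734 to 4896920 counts. The member, the lists and the grouping of plates by number were chosen with earlier results of these data known. Named miRNAs were miR-1247-5p, its other arm, the 5 most alike, the 4 most abundant tested members of each list, and called list members; those given here are examples. HF numbers were not used to pair libraries in the main fit.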

Additional observations from a re-analysis of the deposited data

How the results depend on the processing

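miR-1247-5p stayed higher in HDM under every alternative, at 4.17 to 5.23 log2 units (unfiltered over pellets), 4.23 to 5.14 (filtered over pellets) and 2.83 to 3.23 (over plates). Leaving out 1 library at a time gave 4.17 to 5.01, 4.23 to 4.90 and 2.83 to 3.20. Totals alone gave 5.23 and 5.14 over pellets. TMM factors over 14 libraries gave HDM media 313 CPM. Pellets over plates ran from -1.78 to -1.15 with 1 library left out, and lost its call without the HF6 pellet (-1.15, adjusted p = 0.245) and with limma-voom (-1.58, adjusted p = 0.110). The cause was not tested.

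Filtered over unfiltered HDM, never called, changed sign with totals alone (-0.092), no low-count filter (-0.020), at least 50 counts in 2 libraries (-0.10), limma-voom (-0.010), only the libraries compared (-0.067) and without the 2 shallow libraries, an alternative chosen after seeing the data (-0.19). It ran from -0.29 to 0.62 with 1 library left out. HF7 over HF6, also never called, changed sign with totals alone (0.00132), at least 50 counts (0.00755), DESeq2 (0.00183), only the 6 plate libraries (0.14) and without the 2 shallow libraries (0.12), and ran from -0.11 to 0.18 with 1 library left out.

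A pairing of the libraries by HF6 and HF7 was not clear, and a single difference per collection cannot exclude one. Over 15 pairs of collections the correlation of deviations ran from -0.21 to 0.39, and 6 were over 0.1. With HF number as a replicate block, pellets over plates gave -1.59 and 181 miRNAs were called in place of 174.

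Counts of calls over all miRNAs moved by over 1.5 times in some fits. With plates grouped by HF number, calls were 0 for filtered over unfiltered HDM, 38 for pellets over plates, 54 and 95 for unfiltered and filtered HDM over pellets, and 49 for HDM over plates, against 3, 174, 165, 209 and 166. With only the libraries compared they were 14 for filtered over unfiltered HDM, 74 and 118 over pellets, and 210 for plate 1 (139 in the joint fit). limma-voom called 69 for pellets over plates, 102 for unfiltered HDM over pellets and 216 for plate 1. Filtered over unfiltered HDM had 5 calls with no filter, 6 in DESeq2 and 11 without the shallow libraries. HF7 over HF6 had 4 calls in the plates alone. With 1 library left out, calls fell to as few as 67 for unfiltered HDM over pellets (without the HF6 unfiltered HDM), 136 for filtered HDM over pellets and 86 for HDM over plates (without the HF6 filtered HDM), and 60 for plate 1 (without its HF6 library). The HF7 pellet, at 4 reads, limits the pellet comparisons, and the HDM media sample without cells was not analysed here.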
